A study of Mus musculus with 10 samples.

Results

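Chromatin accessibility of bone marrow (BM) ILC2s was compared with that of lung ILC2s over 49981 of the 50039 open chromatin regions (OCRs) in the merged table. Members were taken by 1 rule, at least 1 count in the table, so that every counted OCR entered the comparison whatever its difference. The comparison used 2 BM libraries and 2 lung libraries, 4 of the 10 ATAC-seq libraries of the series. Each library held 50000 ILC2s sorted from a pool of 16 wild-type C57BL/6 male mice aged 6 weeks, and no treatment is named for either tissue. BM cells were flushed from the bone and sorted as lineage-negative ST2+CD25+ cells, whereas lung tissue was digested with collagenase and DNase and its cells were sorted on another instrument as lineage-negative CD45+CD127+ST2+CD25+ cells. Tissue, digestion, gate, and sorter change together and cannot be told apart. The antibodies named for the lineage gate, against CD3, B220, CD11b, CD11c, and FceRI, include none against a red blood cell precursor.

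ILC2s are innate lymphocytes that make the type 2 cytokines IL-5 and IL-13 without an antigen receptor of their own. They develop in the BM from progenitors that pass through a stage marked by the transcription factor PLZF, the product of *Zbtb16*, and then settle in tissues such as the lung, where they stay for long periods and respond to IL-33 through its receptor ST2, the product of *Il1rl1*. ATAC-seq marks open chromatin with a transposase, and open regions away from promoters often act as enhancers, where transcription factors such as GATA3 or the AP-1 family can bind.

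The 8 sequences shown here, of 300 bp each, are the middle parts of the most changed OCR of genes that the results turn on. They are from the plus strand of GRCm38 (mm10), with the words AGATAA and TGATAA, which GATA factors bind, and TGANTCA, which AP-1 binds, in capitals on either strand, so that TTATCT and TTATCA are the same GATA words read on the minus strand. The GATA words differ in their first letter and cannot match the same site, and TGANTCA reads the same on both strands. In the middle 500 bp of all 49981 OCRs, AGATAA was present in 24.7%, TGATAA in 18.3%, and TGANTCA in 23.2%. The first 3 sequences were more open in BM ILC2s and the other 5 in lung ILC2s. No GATA or AP-1 word lies in the stretch from *Aff3* or from the *Klrg1* promoter, and a word is a match of letters, not a bound site.
Zbtb16, intron 3, chr9:48723587-48723886: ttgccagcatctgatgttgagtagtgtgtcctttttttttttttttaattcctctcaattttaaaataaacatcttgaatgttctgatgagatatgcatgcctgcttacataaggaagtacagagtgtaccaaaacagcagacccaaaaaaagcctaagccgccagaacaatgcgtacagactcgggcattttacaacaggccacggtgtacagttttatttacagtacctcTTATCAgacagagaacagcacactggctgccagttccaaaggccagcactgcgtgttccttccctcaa
Aff3, intron 1, chr1:38599774-38600073: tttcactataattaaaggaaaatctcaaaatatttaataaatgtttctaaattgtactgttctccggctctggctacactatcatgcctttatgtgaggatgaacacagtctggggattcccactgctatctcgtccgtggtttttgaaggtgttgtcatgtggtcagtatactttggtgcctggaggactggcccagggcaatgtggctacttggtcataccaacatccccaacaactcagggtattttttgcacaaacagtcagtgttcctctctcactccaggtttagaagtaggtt
Ank1, intron 1, chr8:23054039-23054338: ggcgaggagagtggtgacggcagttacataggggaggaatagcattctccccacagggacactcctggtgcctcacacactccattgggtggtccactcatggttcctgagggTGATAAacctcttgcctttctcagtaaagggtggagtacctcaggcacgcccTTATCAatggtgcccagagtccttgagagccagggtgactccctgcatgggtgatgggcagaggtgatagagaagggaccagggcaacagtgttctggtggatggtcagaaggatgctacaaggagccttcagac
Il1rl1, intron 8, chr1:40448369-40448668: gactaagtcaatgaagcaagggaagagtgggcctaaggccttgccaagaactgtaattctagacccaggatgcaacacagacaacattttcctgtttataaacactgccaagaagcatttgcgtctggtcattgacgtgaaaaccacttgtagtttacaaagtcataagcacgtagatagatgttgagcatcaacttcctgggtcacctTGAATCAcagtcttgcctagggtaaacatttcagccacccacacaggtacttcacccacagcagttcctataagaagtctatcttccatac
Tnfsf8, intergenic, 74.3 kb upstream, chr4:63935390-63935689: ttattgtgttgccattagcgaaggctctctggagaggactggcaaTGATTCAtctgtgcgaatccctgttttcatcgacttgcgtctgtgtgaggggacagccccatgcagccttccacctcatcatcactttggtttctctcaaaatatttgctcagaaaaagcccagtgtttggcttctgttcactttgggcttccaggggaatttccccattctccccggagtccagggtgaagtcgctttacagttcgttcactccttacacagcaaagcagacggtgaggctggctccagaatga
Dgki, nearest start site, within intron 2 of Creb3l2, chr6:37370641-37370940: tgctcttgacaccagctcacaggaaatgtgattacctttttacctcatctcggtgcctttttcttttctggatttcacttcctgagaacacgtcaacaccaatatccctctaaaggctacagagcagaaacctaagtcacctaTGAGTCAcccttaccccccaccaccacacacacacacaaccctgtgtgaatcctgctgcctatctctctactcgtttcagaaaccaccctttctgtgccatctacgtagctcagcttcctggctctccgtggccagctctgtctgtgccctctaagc
Trib1, nearest start site, within intron 4 of Nsmce2, chr15:59520167-59520466: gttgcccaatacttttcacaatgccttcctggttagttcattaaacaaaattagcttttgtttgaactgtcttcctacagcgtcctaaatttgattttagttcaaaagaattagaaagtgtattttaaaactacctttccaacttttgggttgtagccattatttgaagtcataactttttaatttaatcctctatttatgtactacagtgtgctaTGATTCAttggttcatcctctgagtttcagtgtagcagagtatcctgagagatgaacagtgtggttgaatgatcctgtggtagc
Klrg1, promoter, chr6:122283592-122283891: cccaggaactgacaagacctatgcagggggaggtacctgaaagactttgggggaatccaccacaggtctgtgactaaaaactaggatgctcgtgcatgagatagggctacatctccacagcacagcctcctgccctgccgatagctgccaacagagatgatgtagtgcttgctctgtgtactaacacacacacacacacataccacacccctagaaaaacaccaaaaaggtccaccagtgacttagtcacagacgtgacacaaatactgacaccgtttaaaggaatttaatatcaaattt

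Of the 49981 OCRs, 9513 (19%) differed between BM and lung ILC2s at an adjusted p under 0.05 in edgeR's quasi-likelihood test, 3780 (7.56%) with higher accessibility in BM and 5733 (11.5%) with higher accessibility in lung. Under this TMM scaling promoters went the other way from the rest of the genome. Of 9629 promoter OCRs, whose centre lies at most 1000 bp before or 100 bp after a transcription start site (TSS), 448 (4.65%) were higher in BM and 294 (3.05%) in lung. Within genes, 1946 of 24889 OCRs were higher in BM and 3477 in lung, and between genes 1386 of 15463 were higher in BM and 1962 in lung. The share of differing OCRs grew with distance from the TSS, from 4.5% higher in BM and 3.22% higher in lung within 1 kb to 12% and 17.6% beyond 100 kb. Counted without any test, both BM libraries lay above both lung libraries in 16511 OCRs (33%), and both lung libraries above both BM libraries in 15221 (30.5%).

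The size of the difference, given throughout as a log2 difference of BM minus lung with the standard error (SE) of the fit, had a median of 0.05 over all OCRs and 0.17 over promoters. Among OCRs that passed the test, 1182 were past a log2 difference of 2 in BM and 1301 past the same size in lung. The scale decides part of the balance between the directions. When libraries were scaled by their size alone, the median of all OCRs moved by −0.21, and 2606 OCRs were higher in BM and 8090 in lung, so that BM took 24.4% of the differing OCRs rather than 39.7%. Promoters then turned to 221 higher in BM and 494 in lung, and they also turned with library size taken without the 50 most counted regions, to 328 and 358, and without lung replicate 2, to 108 and 116. The excess of BM promoters therefore depends on the scaling and on 1 library. In the 50 most counted regions lay 16.2% and 20.0% of the BM counts against 10.9% and 9.91% of the lung counts, and without these regions promoters held 46.2% and 45.0% of the BM counts and 42.0% and 41.2% of the lung counts.

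Replicates agreed in rank with a Spearman correlation of 0.960 in BM and 0.975 in lung over OCRs, against 0.833 to 0.875 between a BM and a lung library, where OCRs are not independent of each other. Each library carried weight in the number of differing OCRs. The counts higher in BM and in lung were 1780 and 3103 without BM replicate 1, 2574 and 3547 without BM replicate 2, 2626 and 4272 without lung replicate 1, and 1325 and 3117 without lung replicate 2, with the lone library then assumed to vary like the other tissues. A set of 1070 OCRs higher in BM and 2273 higher in lung passed in the full comparison and in each of these 4. Where 4 counts follow the count of a gene or gene list below, they are the counts without BM replicate 1, BM replicate 2, lung replicate 1, and lung replicate 2, in that order.

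**Figure D1:**
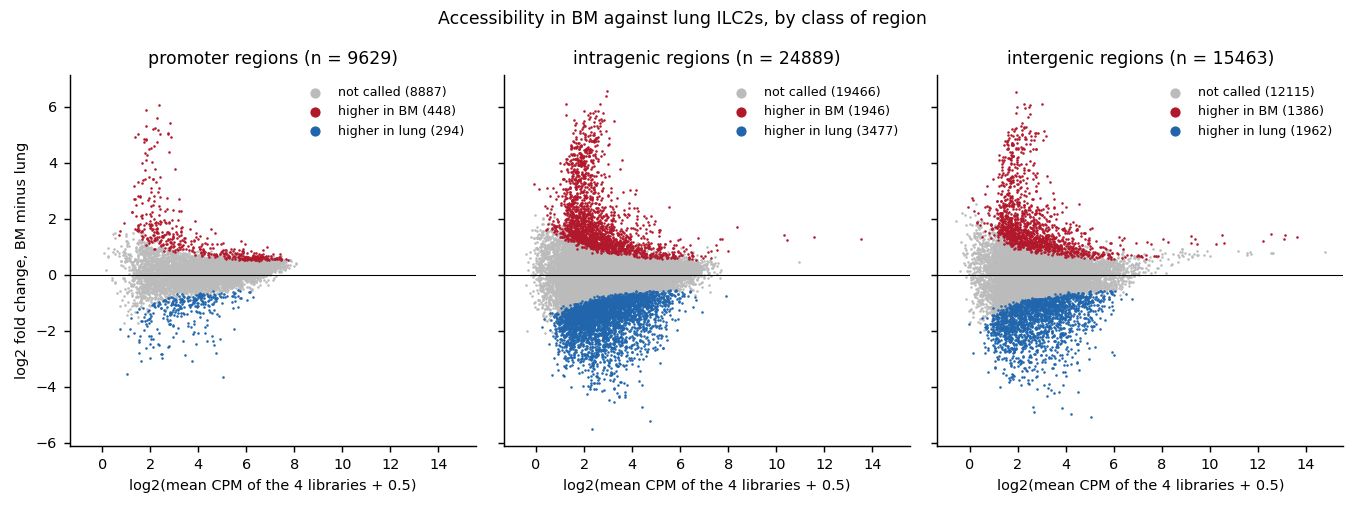
Log2 difference of BM minus lung (vertical axis) against the mean log2 CPM of each OCR (horizontal axis), with 1 panel each for promoter, intragenic, and intergenic OCRs. Coloured points passed an adjusted p of 0.05, 448 and 294 in promoters, 1946 and 3477 within genes, and 1386 and 1962 between genes (higher in BM, higher in lung), and the largest differences in BM lie at low mean CPM.

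The largest differences in favour of BM included genes of the red blood cell lineage and lay at OCRs that were nearly closed in lung ILC2s. Values in the 4 libraries are given in CPM, the counts scaled to the TMM-adjusted size of each library, in the order BM replicate 1, BM replicate 2, lung replicate 1, lung replicate 2. In intron 1 of *Ank1*, the ankyrin of the red cell membrane, the values were 18.3, 4.88, 0.196, and 0.138 CPM (log2 6.10 ± 0.74 SE, adjusted p = 3.5e-05). This OCR was open in BM and close to 0 in lung, and BM replicate 1 exceeded BM replicate 2.

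Promoters of the same lineage were ordered in the same way. The promoter of *Epb42*, a further membrane protein of red cells, had 13.1, 4.0, 0.314, and 0.0552 CPM (log2 5.61 ± 0.74, adjusted p = 7.3e-05). The promoter of *Slc14a1*, the urea transporter that red cells carry, had 13.5, 5.11, 0.196, and 0.0828 CPM (log2 6.07 ± 0.90, adjusted p = 0.00018). At the beta-globin promoter of *Hbb-bs* the values were 11.2, 7.64, 0.392, and 0.193 CPM (log2 5.03 ± 0.58, adjusted p = 2.3e-05). No overlap between the tissues was part of the rule that picked the promoters with the largest differences. The alpha-globin promoter of *Hba-a1* was open in lung as well, at 13.5, 6.40, 1.8, and 2.04 CPM (log2 2.36 ± 0.38, adjusted p = 0.00033).

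The 12 largest BM differences also lay near genes with other known functions. They include intron 11 of *Smpd4*, a sphingomyelinase (406, 195, 6, and 3 counts), with *Ccdc74a* as the nearest start site and the largest log2 difference of these OCRs (6.54 ± 0.77, adjusted p = 3e-05), intron 6 of the kinase gene *Tbk1* (384, 190, 4, and 6 counts), and an OCR 3.2 kb upstream of *Clec4e*, a receptor of myeloid cells (173, 97, 2, and 2 counts). Each of the 12 had at most 8 counts in a lung library, and in each BM replicate 1 had more counts than BM replicate 2. In the other direction the largest of the 12 was smaller, at −5.49.

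**Figure D2:**
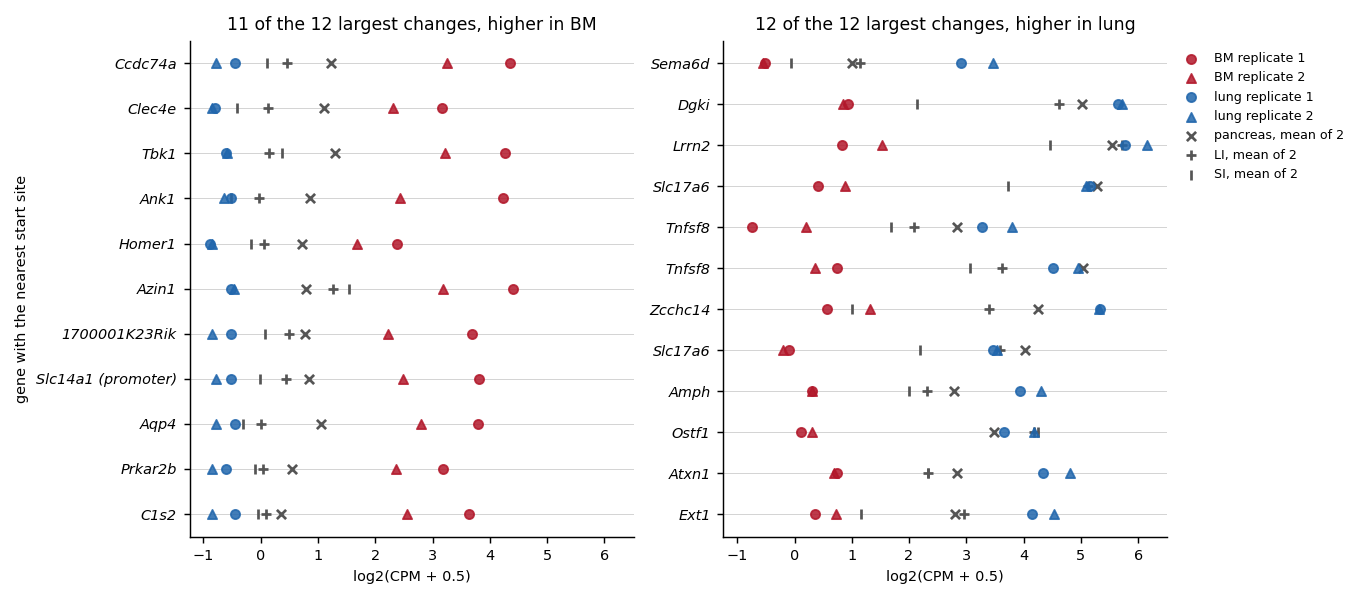
Of the 12 OCRs with the largest difference in each direction, 11 for BM and 12 for lung are drawn, with log2 (CPM + 0.5) in each of the 4 libraries as points and the mean of pancreas, large intestine (LI), and small intestine (SI) ILC2 libraries as marks. BM-high OCRs such as that of Ank1 (18.3 and 4.88 CPM in BM, 0.196 and 0.138 in lung) lie near the floor in lung and low in the other tissues, whereas lung-high OCRs are often open there too.

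The gap between the BM replicates grew with the size of the difference. Among OCRs higher in BM, the median ratio of replicate 1 to replicate 2 was 1.05 for log2 differences under 1 (739 OCRs), 0.991 from 1 to 2 (1859), 1.14 from 2 to 3 (566), 1.89 from 3 to 4 (292), and 2.31 above 4 (324). Above 4, 96.3% of OCRs had a ratio over 1.5, against 8.93% under 1. The OCRs above 4 were at a median of 6.89 CPM in BM, 0.279 in lung, 1.21 in pancreas, 0.784 in LI, and 0.495 in SI, and each was exactly 500 bp wide, the narrowest width in the table. AGATAA was present in 27.7% of the OCRs under 1 and in 66.0% of those above 4. Lung-high OCRs had a smaller gap that also grew, with lung replicate 2 the higher and median ratios of lung replicate 1 to 2 from 0.918 under 1 to 0.761 above 4 (32 OCRs).

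Markers of other cells that either sort could hold were counted beside these values. Of 34 OCRs nearest to 9 haematopoietic progenitor and erythroid markers, 16 (47.1%) were higher in BM and 0 in lung, with a median log2 difference of 0.92 against 0.05 over all OCRs. Without each library in turn the count higher in BM was 11, 13, 10, and 7. The summed promoter CPM of this list was 62.2, 56.9, 31.7, and 30.9, and the defining genes *Cd34* and *Gata1* have no OCR in the table. Genes of earlier blood progenitors were among them. At *Erg*, a factor of blood stem and progenitor cells, 4 of 4 OCRs were higher in BM (3, 4, 4, and 2 without each library), the most changed at 11, 13.4, 1.49, and 0.580 CPM (log2 3.59 ± 0.44, adjusted p = 4.1e-05), with the replicates even. *Mecom*, *Meis1*, and *Tal1*, further factors of blood progenitors, had 4 of 9, 3 of 9, and 2 of 5 OCRs higher in BM, of which 4, 3, 2, and 3, then 2, 1, 2, and 0, and then 0, 1, 0, and 0 passed without each library. Over the 16 OCRs, the median ratio of BM replicate 1 to 2 was 1.08, and 4 had a ratio over 1.5.

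Myeloid markers had 3 of 14 OCRs higher in BM and 0 in lung (1, 2, 2, and 1 without each library), among them the promoter of *Spi1*, the factor PU.1, at 3.91, 3.41, 0.941, and 0.386 CPM (log2 2.50 ± 0.60, adjusted p = 0.0076, and adjusted p = 0.053 without BM replicate 1 and 0.12 without lung replicate 2). B cell markers had 0 of 7 in either direction (1 in BM without BM replicate 2), with 8 of 11 genes without an OCR. T cell markers had 2 higher in BM and 3 in lung of 24 (1, 0, 0, and 0 in BM and 1, 2, 1, and 2 in lung without each library). Natural killer and ILC1 markers had 1 and 1 of 20 (1, 1, 3, and 1 in BM and 1, 0, 0, and 1 in lung), and mast cell and basophil markers 2 and 2 of 16 (2, 1, 2, and 0 in BM and 1, 0, 1, and 0 in lung). Lung epithelial and endothelial markers had 2 higher in BM and 5 in lung of 31 (2, 1, 2, and 0 in BM and 3, 5, 6, and 3 in lung), where the genes *Sftpc*, *Nkx2-1*, *Cdh5*, *Tek*, and *Emcn* have no OCR and 3 lung-high OCRs nearest to *Scgb1a1* lie within *Ahnak*. The only promoter OCR of that list had 2.89, 3.54, 4.43, and 5.49 CPM. The shares higher in BM and in lung were 21.4% and 0% for myeloid markers and 8.33% and 12.5% for T cell markers. Natural killer and ILC1 markers had 5% and 5%, and mast cell and basophil markers 12.5% and 12.5%. Lung epithelial and endothelial markers had 6.45% and 16.1%. Over all OCRs the shares were 7.56% and 11.5%. The lung counts of 0 for progenitor and myeloid markers in edgeR stayed 0 at an unadjusted p under 0.05 and in DESeq2, whereas B cell markers had 2 OCRs higher in BM at an unadjusted p, and 1 and 0 in DESeq2 on 10 and on 4 libraries. In bulk libraries, cells of another type and a change within ILC2s cannot be told apart, and the part of other cell types in the BM-high OCRs was not tested.

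Most BM-high OCRs were even between the replicates. Of the 3780, 2634 (69.7%) lay within 1.5 times of each other in the BM libraries, with a median log2 difference of 1.33 and medians of 7.88, 8.01, 3.21, and 2.68 CPM. These OCRs were also open in the other tissues, at medians of 4.72 CPM in pancreas, 5.03 in LI, and 5.41 in SI. By contrast, the 965 (25.5%) in which BM replicate 1 exceeded replicate 2 by over 1.5 times had a median log2 difference of 3.29 and medians of 8.91, 4.14, 0.823, and 0.442 CPM.

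*Zbtb16*, which encodes PLZF, had the most BM-high OCRs of any gene. All 14 of its OCRs were higher in BM, from a log2 difference of 0.93 to 3.78 with a median of 1.83, and 8, 11, 13, and 8 of them passed without each library. Summed over the gene, accessibility was 231 and 244 CPM in the BM libraries and 81.3 and 67.4 CPM in the lung libraries, against means of 133 CPM in pancreas, 71.6 in LI, and 86.0 in SI. The BM libraries were about even over the gene and stood above those of each other tissue. The promoter OCR had 20.2, 24.0, 5.88, and 5.88 CPM (log2 1.91 ± 0.25, adjusted p = 7.4e-05), and an OCR in intron 2 had 19.1, 27.9, 6.00, and 3.01 CPM (log2 2.40 ± 0.34, adjusted p = 0.00013). The most changed OCR, in intron 3 and 112 kb downstream of the TSS, is the first of the sequences shown above and had 27.2, 13.3, 1.76, and 1.21 CPM (log2 3.78 ± 0.42, adjusted p = 1.9e-05).

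*Aff3*, a nuclear protein of lymphoid cells, came next, with 12 of 14 OCRs higher in BM and 0 in lung (11, 9, 11, and 8 without each library). The 12 spanned log2 differences from 1.64 to 3.97, and summed to 148 and 170 CPM in BM and 41.8 and 29.0 CPM in lung. The direction of this sum is set by the choice of BM-high OCRs. *Adgrl2*, an adhesion receptor, had 9 of 21 higher in BM and 0 in lung (7, 5, 6, and 4 in BM without each library). Both lung counts of 0 stayed 0 at an unadjusted p under 0.05 and in DESeq2. *Foxp1*, a factor of early lymphocytes, had 9 of 43 higher in BM and 4 in lung (5, 3, 6, and 1 in BM and 1, 1, 4, and 1 in lung). *Gse1* had 10 of 19 and *Rad51b*, a DNA repair gene, 10 of 23 higher in BM, each with 1 higher in lung, and kept at least 5 in BM without any 1 library. At *Dhrs3*, a retinal reductase, 8 of 23 were higher in BM (5, 6, 7, and 5 without each library) and 3 in lung (2, 1, 2, and 2). The BM-high ones had a median replicate ratio of 1.73 and include an OCR at 14.2, 7.22, 0.510, and 0.276 CPM (log2 4.79 ± 0.65). *Dad1*, a subunit of the enzyme that glycosylates proteins, had 8 of 37 higher in BM (2, 6, 5, and 1 without each library) and 2 in lung (0, 1, 2, and 0), and 29 of its 37 OCRs lie within the T cell receptor alpha and delta locus on chromosome 14, where 10 of 62 OCRs were higher in BM and 1 in lung.

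*Rora*, a factor needed for ILC2 development, and *Itga4*, an integrin subunit used in BM homing, were changed at distal OCRs. In intron 1 of *Rora*, 1 OCR had 9.15, 6.21, 0.784, and 1.10 CPM (log2 3.0 ± 0.45, adjusted p = 0.0002) and another 4.50, 4.56, 15.3, and 23.3 CPM (log2 −2.09 ± 0.32, adjusted p = 0.00022). These OCRs went opposite ways within the same intron, and over the gene 2 of 29 OCRs were higher in BM and 6 in lung (1 each time in BM and 3, 3, 4, and 3 in lung without each library). *Itga4* had 6 of 28 OCRs higher in BM and 1 in lung (0, 4, 2, and 1 in BM and 0, 0, 1, and 0 in lung), with 22.3, 11.4, 6.15, and 6.60 CPM in its intron 2 (log2 1.40 ± 0.31, adjusted p = 0.0041, and adjusted p = 0.13 without BM replicate 1).

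In lung ILC2s the largest differences lay outside promoters. None of the 32 lung-high OCRs above a log2 difference of 4 was a promoter, whereas 27 of the 324 BM-high ones of that size were. An OCR within intron 2 of *Creb3l2*, a transcription factor of the secretory pathway, with *Dgki* as the nearest start site, had 1.42, 1.29, 49.4, and 52.2 CPM (log2 −5.23 ± 0.26, adjusted p = 1.6e-08). In intron 1 of *Sema6d*, a semaphorin, the values were 0.196, 0.184, 7.02, and 10.5 CPM (log2 −5.49 ± 0.66, adjusted p = 3.4e-05). In intron 1 of *Zcchc14* they were 0.979, 1.98, 39.7, and 39.5 CPM (log2 −4.73 ± 0.41, adjusted p = 3e-06). In each, both lung libraries lay above both BM libraries, which the rule for the largest differences required. Upstream of *Tnfsf8*, the CD30 ligand, 2 OCRs 74.3 and 78.3 kb from the TSS were among the 12 largest, the latter at 1.17, 0.782, 22.3, and 30.3 CPM (log2 −4.75 ± 0.37, adjusted p = 1.4e-06), and 5 of the 7 OCRs of the gene were higher in lung (3 without any 1 library). The same set holds OCRs near *Lrrn2*, *Slc17a6*, *Amph*, *Ostf1*, *Atxn1*, and *Ext1*.

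Lung-high OCRs gathered at more genes than BM-high ones. Of 16806 genes with an OCR, 2710 had at least 1 higher in BM, 2935 at least 1 higher in lung, and 465 both. At least 5 OCRs were higher in lung at 225 genes, and at least 5 were higher in BM at 41. The genes with the most were *Atxn1* (22 of 33), *Ldlrad4* (17 of 31), *Irf4* (16 of 24), *Trib1* (16 of 20), the mitotic kinase gene *Nek7* (15 of 19), *Bcl11b* (15 of 24), *Atp2b1* (15 of 34), and *Itpr1* (13 of 14). *Ldlrad4* dampens TGF-beta signalling, *Trib1* is a pseudokinase that guides protein breakdown, and *Itpr1* and *Atp2b1* encode a calcium channel of the endoplasmic reticulum and a calcium pump of the cell membrane. Of these 8 genes, leaving out a library left from 4 (*Atp2b1*, without BM replicate 1) to 20 (*Atxn1*, without lung replicate 1) lung-high OCRs. A promoter did not have to move with its gene. Of 218 genes with a lung-high promoter and an OCR elsewhere, 133 had lung-high OCRs elsewhere, 8 BM-high, 9 both, and 68 neither, and of 266 genes with a BM-high promoter these numbers were 18 lung-high, 110 BM-high, 10 both, and 128 neither.

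*Irf4*, a factor of activated lymphocytes, and *Bcl11b*, which is needed to keep ILC2 identity, changed at most of the OCRs nearest to them. The 16 lung-high OCRs of *Irf4* summed to 44.5, 48.1, 157, and 155 CPM. The direction of this sum is set by the choice of lung-high OCRs. An OCR 37.0 kb downstream had 10.8, 11.5, 46.0, and 39.3 CPM (log2 −1.94 ± 0.22, adjusted p = 1.9e-05). At *Bcl11b* the 15 lung-high OCRs (11, 12, 12, and 11 without each library) lay downstream of the TSS, with the most changed in intron 3 at 2.45, 3.64, 24.6, and 31.4 CPM (log2 −3.20 ± 0.34, adjusted p = 1.2e-05). Another 3 OCRs of *Bcl11b*, all upstream, were higher in BM, with log2 differences from 1.13 to 1.42, of which 0, 0, 1, and 0 passed without each library. The *Bcl11b* promoter was even, at 29.9, 32.2, 34.2, and 33.4 CPM (log2 −0.12).

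The receptor genes that guide ILC2s changed at distal OCRs too. *Il1rl1*, which encodes ST2, had 12 of 19 OCRs higher in lung and 0 in BM (8, 7, 11, and 6 without each library), and the 12 summed to 98.6 and 92.0 CPM in BM and 207 and 310 CPM in lung, beside means of 249 CPM in pancreas, 122 in LI, and 37.3 in SI. The order of BM and lung in this sum is set by the choice of lung-high OCRs. ST2 was part of the gate of both tissues. Its BM count of 0 in edgeR stayed 0 at an unadjusted p under 0.05 and in DESeq2. The most changed of these OCRs, in intron 8 and shown above, had 1.47, 1.06, 14.5, and 23.8 CPM (log2 −3.92 ± 0.35, adjusted p = 3.3e-06). At *Kit*, the stem cell factor receptor, 10 of 22 OCRs were higher in lung and 2 in BM (6, 5, 8, and 4 in lung without each library). The OCR in its intron 1 had 12, 13.4, 58.0, and 62.7 CPM (log2 −2.24 ± 0.22, adjusted p = 7.3e-06). The BM-high ones lay 114 kb upstream and 120 kb downstream, the latter at 14, 11.8, 3.37, and 4.0 CPM (log2 1.8 ± 0.28, adjusted p = 0.00027), and the upstream one did not pass without BM replicate 1 or without lung replicate 2 (adjusted p = 0.20 and 0.13).

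**Figure D3:**
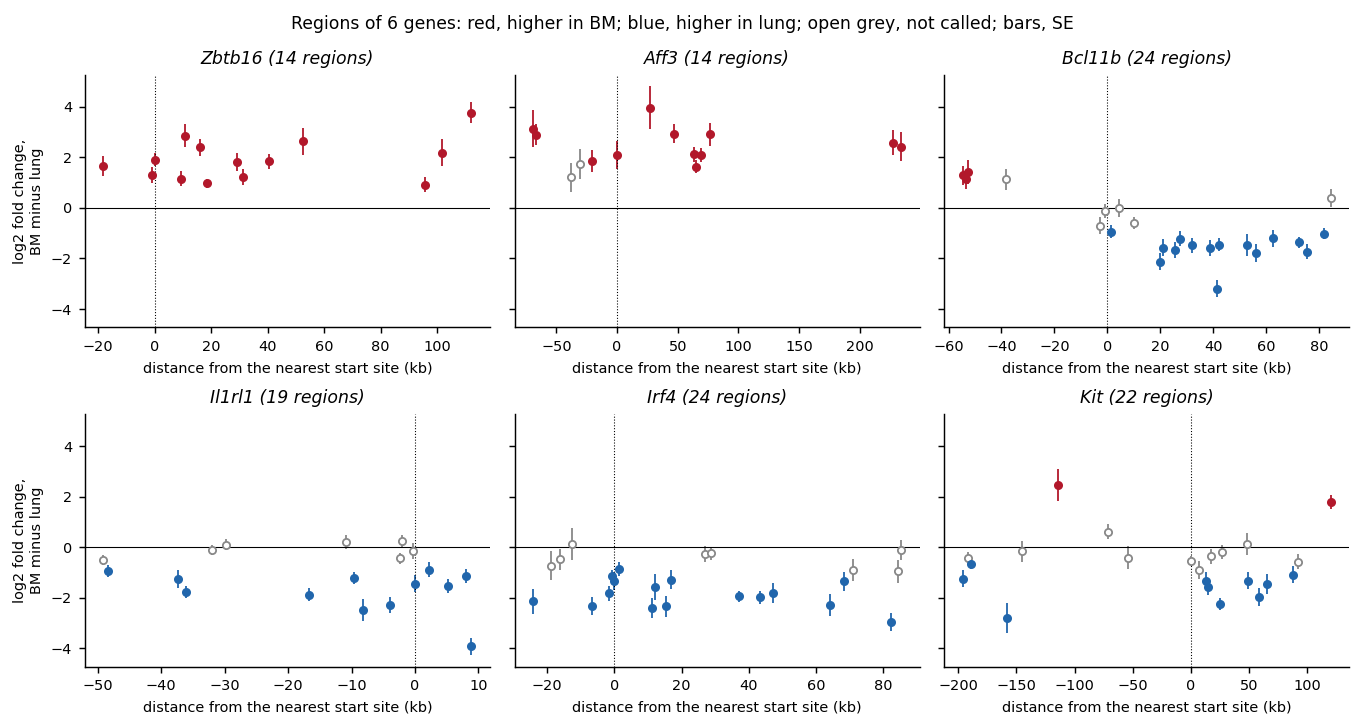
Log2 difference of BM minus lung with its SE (vertical axis) against distance from the TSS in kb (horizontal axis) for each OCR of Zbtb16, Aff3, Bcl11b, Il1rl1, Irf4, and Kit, coloured where the test was passed. All 14 OCRs of Zbtb16 lie above 0 and the 15 lung-high OCRs of Bcl11b lie downstream of its start site.

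Of the promoters of 10 genes that define ILC2s, those of *Klrg1*, an inhibitory receptor of mature ILC2s, and 1 of *Il1rl1* passed the test, all higher in lung. The *Klrg1* promoter had 2 OCRs, 1 with 7.58, 8.70, 26.8, and 32.2 CPM (log2 −1.86 ± 0.29, adjusted p = 0.00025) and 1 with 3.57, 2.76, 9.57, and 13.1 CPM (log2 −1.84 ± 0.28, adjusted p = 0.00025). At both the lung libraries lay above the BM libraries, without overlap. A downstream promoter of *Il1rl1* had 4.26, 3.77, 9.25, and 12.5 CPM (log2 −1.44 ± 0.35, adjusted p = 0.0083), which did not pass without BM replicate 1, BM replicate 2, or lung replicate 2 (adjusted p = 0.057, 0.077, and 0.097), and its upstream promoter had a log2 difference of −0.14 (adjusted p = 0.80). The promoters of *Gata3* (log2 0.15 and 0.18), *Il7r* (0.08), *Icos* (0.10), *Il2ra* (−0.38), *Id2* (0.37), *Rora* (0.47), and *Ptprc*, which encodes CD45 (0.13), did not pass the test in edgeR, with adjusted p from 0.12 to 0.84, and that of *Rora* passed on the 4 libraries alone (adjusted p = 0.044 in edgeR and 0.038 in DESeq2). All were open in the 4 libraries, and the promoter of *Thy1* has no OCR in the table. So all of the ILC2 marker genes with a promoter OCR were accessible in both tissues.

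Around the genes of ILC2 identity as a list of 23, 61 of 288 OCRs (21.2%) were higher in lung and 10 (3.47%) in BM, beside 11.5% and 7.56% over all OCRs, with a median log2 difference of −0.21. With library size alone it had 76 and 3, and each of the 34 lists then had at most as many BM-high and at least as many lung-high OCRs as under TMM. The lung count was 34, 39, 54, and 32 without each library, and the BM count 1, 1, 4, and 1. Genes of ILC progenitors were divided, with 38 of 283 OCRs (13.4%) higher in BM and 50 (17.7%) in lung. Their BM-high OCRs lay at *Zbtb16* (14), *Itga4* (6), and *Ikzf2* (4), and their lung-high ones at *Kit* (10), *Runx1* (8), *Tox* (6), *Pdcd1* (5), and *Notch2* (5). Without each library, the BM count of this list was 16, 23, 25, and 13, and the lung count 24, 29, 38, and 20. In *Tox*, a factor of early ILC development, an intron 1 OCR had 3.62, 2.76, 26.9, and 23.5 CPM (log2 −2.98 ± 0.35, adjusted p = 2.6e-05). Upstream of *Tcf7*, the factor TCF-1, an OCR had 0.832, 1.24, 8.0, and 9.88 CPM (log2 −3.10 ± 0.37, adjusted p = 3.6e-05).

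Genes of type 2 effector molecules had 27 of 124 OCRs higher in lung and 9 in BM (14, 18, 26, and 14 in lung and 4, 5, 6, and 3 in BM without each library). The shares of this list were 21.8% in lung and 7.26% in BM, beside 11.5% and 7.56% over all OCRs. The lung-high ones lay at *Il10* (7), *Ccl1* (5), *Arg1* (4), and *Cxcl1* (3). Upstream of *Il10*, an anti-inflammatory cytokine, an OCR had 1.66, 1.89, 17.5, and 24.5 CPM (log2 −3.56 ± 0.33, adjusted p = 4.3e-06), and 7.7 kb from the TSS of *Il13*, an effector cytokine of ILC2s, the values were 3.96, 2.95, 13.4, and 22.3 CPM (log2 −2.38 ± 0.31, adjusted p = 6.2e-05). Other cytokine genes of the same list were more open in BM. An OCR 13.4 kb upstream of *Il9* had 8.56, 13.7, 1.22, and 0.690 CPM (log2 3.57 ± 0.41, adjusted p = 2.3e-05). The *Il4* promoter had 24.8, 18.4, 8.0, and 9.72 CPM (log2 1.28 ± 0.24, adjusted p = 0.001), and an OCR upstream of *Calca*, which encodes the neuropeptide CGRP, 24.2, 23.6, 7.92, and 5.44 CPM (log2 1.84 ± 0.26, adjusted p = 0.00012). *Il9*, *Il4*, and *Calca* each had 2 BM-high OCRs (at least 1 without any 1 library) and 0 lung-high ones.

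Receptors leaned toward lung. Cytokine receptors had 23.8% of OCRs higher in lung and 6.22% in BM, beside 11.5% and 7.56% over all OCRs. For checkpoint and costimulatory receptors the shares were 27.6% in lung and 3.15% in BM. Cytokine receptor genes had 46 of 193 OCRs higher in lung and 12 in BM, with a median log2 difference of −0.27 (22, 24, 36, and 17 in lung and 5, 2, 8, and 1 in BM without each library). Near *Tnfrsf25*, the receptor of the ILC2 activator TL1A, an OCR had 15.0, 16.4, 57.5, and 50.4 CPM (log2 −1.78 ± 0.21, adjusted p = 2.6e-05). Checkpoint and costimulatory receptors had 35 of 127 higher in lung and 4 in BM, with a median of −0.39 (23, 23, 28, and 23 in lung and 2, 1, 2, and 1 in BM without each library). In this list the promoters moved as well, 7 of 13 to lung and 0 to BM (also 0 at an unadjusted p under 0.05 and in DESeq2), with OCRs of *Tigit*, *Cd96*, *Btla*, *Tnfrsf9*, *Pdcd1*, and *Tnfsf8*. At the promoter of *Tigit*, an inhibitory receptor, the most changed OCR had 7.54, 7.09, 32.2, and 29.6 CPM (log2 −2.08 ± 0.22, adjusted p = 1e-05). *Lag3*, another inhibitory receptor, had 2 BM-high OCRs (2, 1, 1, and 1 without each library), 1 of them at 19.5, 25.2, 9.06, and 6.02 CPM (log2 1.57 ± 0.27, adjusted p = 0.00052). The other did not pass on the 4 libraries alone (adjusted p = 0.055 in edgeR and 0.11 in DESeq2), with library size alone (0.061), or with the replicate number as a block (0.054).

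Genes of survival and cell death had 32 of 99 OCRs higher in lung and 3 in BM, with a median of −0.38 (17, 19, 22, and 15 in lung and 1, 4, 1, and 2 in BM without each library). The shares of this list were 32.3% in lung and 3.03% in BM, beside 11.5% and 7.56% over all OCRs. The lung-high ones lay at *Fasl* (11), which encodes a death ligand, *Bcl2l11* (4), and *Bcl2* (4). Others lay at the promoters of the *Bcl2a1* genes, which encode a survival factor. The *Bcl2a1d* promoter had 5.77, 9.02, 38.5, and 45.7 CPM (log2 −2.51 ± 0.25, adjusted p = 6.8e-06) and that of *Bcl2a1b* 5.09, 5.48, 23.1, and 20.4 CPM (log2 −2.04 ± 0.29, adjusted p = 0.00013). These genes are near-identical copies, so reads kept for mapping to 1 place may be split unevenly between them. Galectin and S100 genes had the lowest median of the lists, −0.52, with 17 of 49 OCRs higher in lung and 2 in BM (12, 7, 13, and 7 in lung and 2 each time in BM). Galectin and S100 shares were 34.7% in lung and 4.08% in BM. An OCR 42.3 kb downstream of *S100a10*, a partner of annexin at membranes, had 8.81, 12.1, 62.6, and 61.6 CPM (log2 −2.56 ± 0.23, adjusted p = 3.6e-06).

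Genes of traffic to and from the marrow had 27 of 150 OCRs higher in lung and 12 in BM (21, 17, 24, and 16 in lung and 0, 7, 6, and 2 in BM without each library). The shares of this list were 18% in lung and 8% in BM, beside 11.5% and 7.56% over all OCRs. Lung-high OCRs lay at *Cd44* (11), a hyaluronan receptor, *Cxcr4* (5), which holds cells in marrow, and *S1pr1* (4), which guides their exit. An OCR 55.5 kb upstream of *Cd44* had 2.50, 3.54, 18.4, and 22.3 CPM (log2 −2.75 ± 0.27, adjusted p = 6.1e-06). The BM-high ones included those at *Itga4* (6), *Ccr9* (2), and *Klf2*, and without BM replicate 1 none of the 12 remained. Tissue residency genes had 25 of 158 higher in lung and 9 in BM (17, 20, 22, and 16 in lung and 5, 7, 7, and 2 in BM). Residency shares, 15.8% in lung and 5.7% in BM, were also not far from those over all OCRs. Upstream of *Itgav*, a subunit of integrins that activate TGF-beta, an OCR had 9.05, 8.93, 43.5, and 53.2 CPM (log2 −2.43 ± 0.33, adjusted p = 9.3e-05).

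Lists of general immune signalling, the cell cycle, KLF and SP factors, and AP-1 factors lay nearer to the shares over all OCRs. Those shares were 7.56% higher in BM and 11.5% in lung. NF-kappaB pathway genes had 5.83% and 6.67%, interferon response genes 10% and 14.2%, and STAT and SOCS genes 6.2% and 12.4%. Cell cycle genes had 7.58% and 9.09%, KLF and SP factors 9.68% and 9.68%, and AP-1 factor genes 8.11% and 6.76%. Glycolysis and hypoxia genes lay further off, at 0% and 17.6%. NF-kappaB pathway genes had 7 of 120 OCRs higher in BM and 8 in lung, which became 3 and 15 with library size alone (3, 2, 2, and 2 in BM and 6, 5, 7, and 3 in lung without each library). Interferon response genes had 12 and 17 of 120, and 6 and 22 with library size alone (4, 7, 4, and 4 in BM and 10, 13, 13, and 11 in lung). STAT and SOCS genes had 8 and 16 of 129, and 5 and 22 with library size alone (3, 6, 5, and 3 in BM and 8, 11, 12, and 8 in lung). Cell cycle genes had 5 and 6 of 66, and 3 and 13 with library size alone (3, 4, 4, and 2 in BM and 3, 3, 5, and 3 in lung). KLF and SP factors had 12 and 12 of 124, which turned to 9 and 17 with library size alone (6, 9, 8, and 6 in BM and 4, 6, 6, and 6 in lung). AP-1 factor genes had 6 and 5 of 74, which turned to 3 and 8 (2, 5, 2, and 2 in BM and 3, 4, 4, and 3 in lung), so neither of these 2 lists has a direction that holds over the scalings. Among the AP-1 genes, the *Fosb* OCR in its 3' UTR exon 4 had 59.8, 43.9, 18.2, and 16.1 CPM (log2 1.60 ± 0.27, adjusted p = 0.0005), and an OCR upstream of *Fosl2* 34.8, 39.9, 73.9, and 89.2 CPM (log2 −1.13 ± 0.20, adjusted p = 0.00072). Glycolysis and hypoxia genes had 16 of 91 higher in lung and 0 in BM (5, 10, 12, and 9 in lung without each library), of which 6 lay at *Epas1*, the hypoxia factor HIF-2alpha. The BM count became 5 at an unadjusted p under 0.05, and 0 and 2 in DESeq2 on 10 and on 4 libraries. The *Epas1* promoter had 30.9, 30.8, 62.0, and 76.6 CPM (log2 −1.17 ± 0.19, adjusted p = 0.00048).

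**Figure D4:**
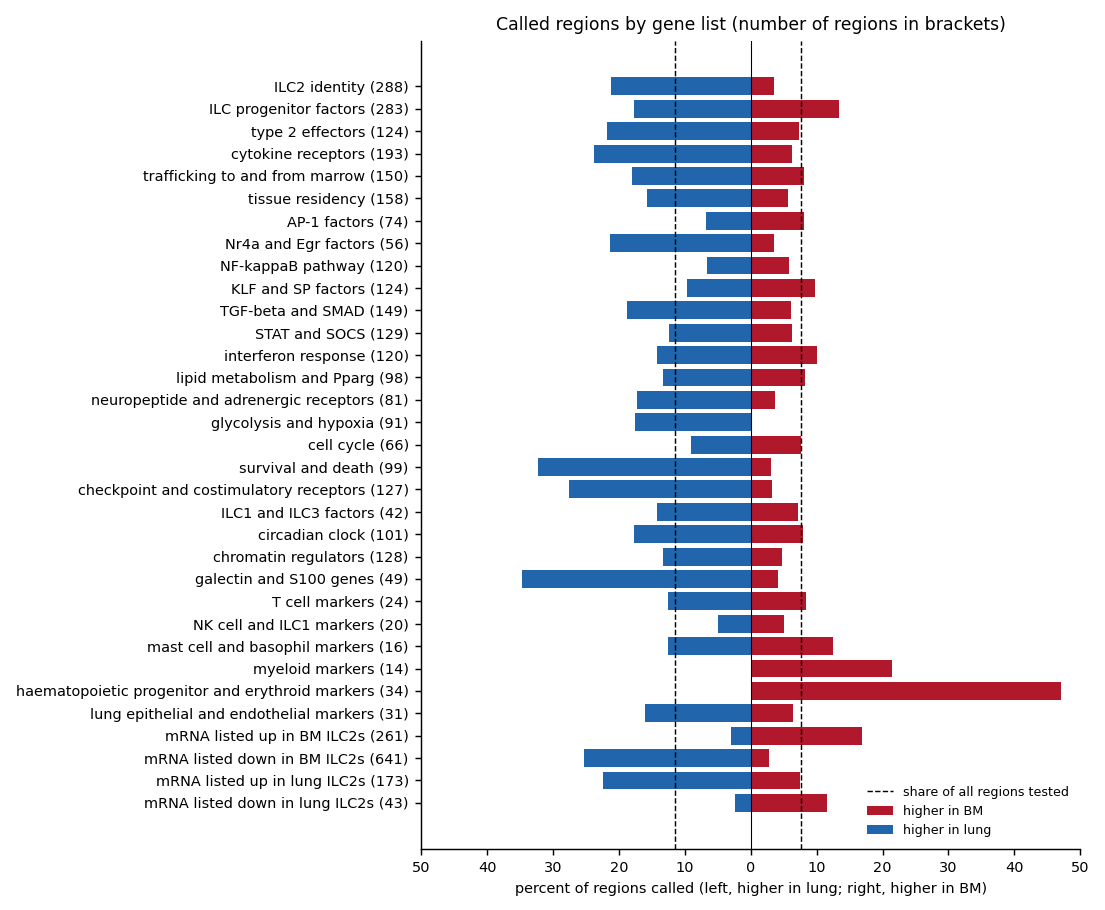
Percent of the OCRs of each gene list that were higher in BM (red bars to the right) and higher in lung (blue bars to the left), with dashed lines at the shares over all OCRs, 7.56% and 11.5%. The progenitor and erythroid markers stand at 47.1% higher in BM, and the ILC2 identity list stands at 3.47% higher in BM and 21.2% in lung.

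The accessibility differences were also set beside lists of genes that the study drew from single-cell RNA sequencing of other samples. The study compared each tissue with the other tissues, singly or together, so these are not lists of BM against lung. They also measure mRNA, not accessibility. Of 261 OCRs nearest to genes listed as higher in BM ILC2s, 44 (16.9%) were higher in BM and 8 in lung, with a median log2 difference of 0.35, and these counts became 23 and 12 with library size alone. The BM count was 14, 41, 18, and 9 and the lung count 4, 6, 5, and 6 without each library. Of 641 OCRs of genes listed as lower in BM ILC2s, 162 were higher in lung and 18 in BM, with a median of −0.30 (83, 102, 116, and 77 in lung and 10, 12, 12, and 10 in BM, and 206 and 12 with library size alone). Genes listed as higher in lung ILC2s had 39 of 173 OCRs higher in lung and 13 in BM (25, 23, 30, and 19 in lung and 2, 7, 7, and 3 in BM, and 56 and 7 with library size alone). The globin genes *Hbb-bs* and *Hba-a2* are on this list, although the 1 OCR of each was higher in BM (log2 5.03 and 2.28). The list for lower in lung had 1 higher in lung and 5 in BM of 43, which became 2 and 2 with library size alone, and 0, 6, 0, and 1 in BM without each library. For genes listed as higher and lower in BM, 3.07% and 25.3% of OCRs were higher in lung and 16.9% and 2.81% in BM. For genes listed as higher and lower in lung, 22.5% and 2.33% were higher in lung and 7.51% and 11.6% in BM. Over all OCRs the shares were 11.5% in lung and 7.56% in BM. Among the listed genes, an OCR of *Fgl2*, a secreted fibrinogen-like protein, had 1.57, 1.06, 12.7, and 17.1 CPM (log2 −3.50 ± 0.38, adjusted p = 1.3e-05), and an OCR near *St3gal6*, a sialyltransferase, 34.5, 42.9, 16.9, and 15.0 CPM (log2 1.28 ± 0.21, adjusted p = 0.00041).

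Short words that transcription factors bind were shared unevenly between the directions. Away from promoters, AGATAA was present in the middle 500 bp of 45.3% of the 3332 BM-high OCRs, 29.4% of the 5439 lung-high ones, and 26.4% of the 31581 that did not differ. TGATAA, the other GATA word, was present in 33.0%, 23.0%, and 19.6%. The AP-1 word TGANTCA went the opposite way, in 21.5% of BM-high, 44.6% of lung-high, and 24.1% of the remaining OCRs. The *Zbtb16* sequence printed above holds 1 GATA word and that of *Ank1* holds 2, and those of *Il1rl1*, *Tnfsf8*, *Dgki*, and *Trib1* an AP-1 word each. Base composition differed little between the 3 groups, with median GC contents of 48.1%, 46.8%, and 48.5%. Within the third of 5 bins of GC content, AGATAA was present in 45.3%, 23.1%, and 25.3%, and TGANTCA in 23.2%, 42.7%, and 24.7%.

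The share with the AP-1 word was larger where the lung difference was larger, from 36.2% of lung-high OCRs with a log2 difference under 1 to 59.4% of the 32 above 4. AGATAA was more frequent in the OCRs in which BM replicate 1 exceeded replicate 2 by over 1.5 times (57%) than in those within 1.5 times (37%), and in both groups it was above the 24.7% over all OCRs. Of the other words among the 20 counted, TGTGGT, bound by RUNX factors, was present in 44.3% of BM-high, 50.5% of lung-high, and 42.2% of the remaining distal OCRs. The NF-kappaB word GGGANTTCC was present in 2.61%, 4.84%, and 3.17%, the NFAT word TGGAAAAT in 2.13%, 3.73%, and 2.65%, and GGGCGGG, bound by KLF and SP factors, in 10.7%, 6.62%, and 14.2%. The shares of TGTGGT, GGGANTTCC, TGGAAAAT, and GGGCGGG in all OCRs were 39.1%, 3.35%, 2.39%, and 21.6%. The SMAD word GTCTAGAC was rare, at 0.584% of all OCRs. It was present in 0.51% of BM-high, 1.32% of lung-high, and 0.532% of the remaining distal OCRs. GGGCGGG is rich in G and C and was below the remaining OCRs in both directions.

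**Figure D5:**
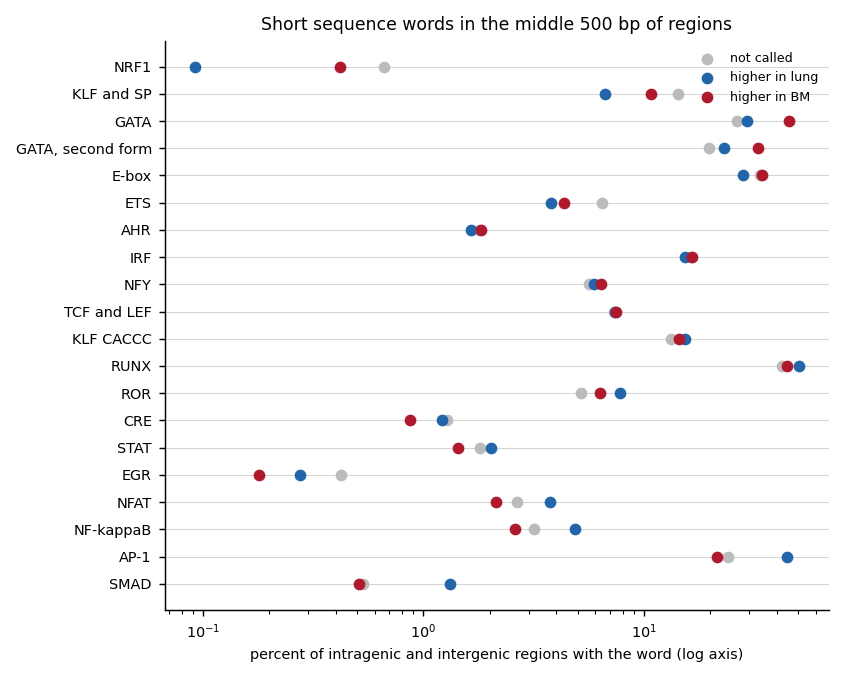
Percent of distal OCRs with each of 20 words in the middle 500 bp (horizontal axis), with points for BM-high, lung-high, and remaining OCRs. In percentage points the largest gaps are AGATAA, at 45.3% in BM-high and 29.4% in lung-high OCRs, and TGANTCA, at 21.5% and 44.6%. The axis is logarithmic, and on it some rare words lie further apart. Among them are the NRF1 word, at 0.42% and 0.0919%, and the SMAD word, at 0.51% and 1.32%.

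The other 3 tissues give levels for the same OCRs. The 5733 lung-high OCRs had median accessibilities of 3.30 CPM in BM and 9.83 CPM in lung, and stood at 8.96 CPM in pancreas, 9.31 in LI, and 6.63 in SI. The 3780 BM-high OCRs stood at 7.33 CPM in BM and 2.2 in lung, and at 3.61 in pancreas, 3.85 in LI, and 4.05 in SI. The OCRs that did not differ lay between 7.19 and 8.15 CPM in each of the 5 tissues. By these medians the 3 other tissues lay between BM and lung in both directions, by description and without a test. The OCRs were chosen for a difference between BM and lung, so this order is partly given by the choice.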

How the data were processed

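The series holds 10 ATAC-seq libraries of ILC2s, of which the BM and lung libraries were compared. The authors deposited raw counts of reads at merged peaks, as whole numbers without normalization. Per the labels and the methods of the study, FastQC 0.11.9 checked the reads, Bowtie2 2.2.9 mapped them to mm10, uniquely mapped reads were kept with SAMtools 1.8, peaks were called with MACS2 2.1.1, those present in both libraries of a tissue were joined across tissues by HOMER, and bedtools gave the reads per peak. Regions that were open in another tissue are therefore part of the table. Removal of duplicate reads, mitochondrial or blacklist filters, and a shift for the transposase are not given in the sources used here. Total counts were 21210346 and 22931454 in BM and 22993276 and 32797872 in lung. Reads carry no molecular identifiers, so depth covers counting error only.

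Every OCR with 1 count or more entered edgeR 4.0.16 in R 4.3.3 (TMM, glmQLFit, and glmQLFTest, 2-sided) in a common fit of the 10 libraries with tissue as the only factor and BM minus lung as the contrast. P-values were adjusted by Benjamini-Hochberg over all OCRs, with 0.05 as the threshold. The SE is the log2 difference divided by the square root of the F statistic. The 2 libraries of a tissue come from pooled mice, and p-values measure only the spread between such libraries. Each OCR was given the gene with the nearest RefSeq curated TSS in GRCm38, whose chromosome lengths hold every OCR. The nearest gene need not be the one that an OCR controls. Introns and exons are those of the longest transcript.

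The genes, gene lists (34), and words (20) were chosen with earlier results of these data known. Text names the 12 OCRs and 6 promoters with the largest differences in each direction (among OCRs that passed, with at least 20 counts in both libraries of the higher tissue and no overlap), the 8 genes with the most OCRs in each direction, up to 4 OCRs per list and direction, and the promoters of ILC2 markers. Some items that meet these rules are not reported here. Other OCRs of the listed genes were named after their values were seen. Alternatives were DESeq2 1.42.0, other scalings, edgeR on the 4 libraries, filters, thinned counts, trends in GC content, width, and mean count removed (loess, span 0.3), blocking on the replicate number, and fits without each of the 4 libraries. Comparisons with pancreas, LI, and SI ILC2s were left out apart from their levels.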

Additional observations from a re-analysis of the deposited data

How the results depend on the processing

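Counts of differing OCRs depended on the number of libraries more than on the tool. Leaving out each library in turn gave from 1325 (without lung replicate 2) to 2626 OCRs higher in BM and from 3103 (without BM replicate 1) to 4272 higher in lung, and from 108 to 458 promoters higher in BM and from 116 to 190 higher in lung. With only the 4 libraries, 885 promoters were higher in BM in edgeR and 939 in DESeq2, against 448. Library size alone gave 221 promoters higher in BM and 494 in lung. An unadjusted p under 0.05 gave 7318 OCRs and 1500 promoters higher in BM and 533 promoters higher in lung, a log2 difference over 1 left 239 and 175 promoters, and a promoter window of 1000 bp on both sides held 442 lung-high promoters. The remaining counts of OCRs and promoters under these settings, DESeq2 on 10 libraries, DESeq2 size factors, TMM outside promoters, trends removed, at least 10 counts, thinned counts, and library size without the 50 most counted regions (chosen after seeing the data) were within 1.5 times of the values reported. The last of these gave 328 promoters higher in BM and 358 in lung, so the balance of promoters turned there, with library size alone, and without lung replicate 2 (108 and 116). No OCR that passed did so in the opposite direction under any fit. Of the 268 OCRs chosen for naming, 54 lost their call without BM replicate 1, 36 without BM replicate 2, 31 without lung replicate 1, and 61 without lung replicate 2, and 14 with library size alone. Among the 268, the log2 difference changed sign only at ILC2 marker promoters that had not passed. With library size alone they were −0.059 and −0.035 at *Gata3*, −0.11 at *Icos*, −0.13 at *Il7r*, and −0.077 at *Ptprc*, with GC and width trends removed −0.016 at *Gata3*, and with library size without the 50 most counted regions −0.0050 at *Il7r*. Leaving out a library gave from −0.59 to 0.22 at the upstream promoter of *Il1rl1* (above 0 without BM replicate 2 or lung replicate 2), from −0.013 (without BM replicate 1) to 0.16 at *Il7r*, and from −0.15 (without BM replicate 1) to 0.37 at *Ptprc*. With the replicate number as a block, 3779 OCRs were higher in BM and 5784 in lung, and the correlation of same-numbered deviations between BM and lung was −0.022. Over all pairs of tissues it lay between −0.22 and 0.20, and the numbers were not taken to pair the libraries. Depth limits OCRs with few lung counts, where differences above a log2 of 4 rest on a median of 0.279 CPM in lung. The cause of these changes was not tested.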

Other observations

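Receptors for neural signals had some of the largest lung differences among the gene lists. Of their OCRs 17.3% were higher in lung and 3.7% in BM, beside 11.5% and 7.56% over all OCRs. Of 81 OCRs nearest to neuropeptide and adrenergic receptor genes, 14 were higher in lung and 3 in BM (12, 10, 13, and 11 in lung and 1, 2, 3, and 2 in BM without BM replicate 1, BM replicate 2, lung replicate 1, and lung replicate 2). An OCR in intron 4 of *Vipr2*, a receptor of vasoactive intestinal peptide, had 1.42, 1.10, 12.8, and 20.5 CPM in the same order of libraries, BM before lung (log2 −3.72 ± 0.41, edgeR adjusted p = 1.5e-05). In intron 2 of *Ramp1*, a subunit of the CGRP receptor, the values were 0.489, 1.10, 9.64, and 11.2 CPM (log2 −3.69 ± 0.44, adjusted p = 3e-05), and downstream of *Adrb1*, a beta-adrenergic receptor, 0.343, 0.644, 5.25, and 8.34 CPM (log2 −3.76 ± 0.48, adjusted p = 6e-05).

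Nr4a and Egr genes and TGF-beta and SMAD genes also leaned toward lung. Nr4a and Egr genes had 21.4% of OCRs higher in lung and 3.57% in BM, beside 11.5% and 7.56% over all OCRs. For TGF-beta and SMAD genes the shares were 18.8% in lung and 6.04% in BM. Genes of the Nr4a and Egr families had 12 of 56 OCRs higher in lung and 2 in BM (7, 8, 8, and 7 in lung and 1, 3, 3, and 1 in BM). Upstream of *Egr2* an OCR had 0.783, 0.736, 4.63, and 10.7 CPM (log2 −3.33 ± 0.48, adjusted p = 0.00015), and upstream of *Nr4a3* an OCR had 0.636, 0.828, 6.94, and 4.61 CPM (log2 −2.96 ± 0.36, adjusted p = 3.9e-05). Near *Nr4a2* an OCR was higher in BM, at 20.1, 20.2, 7.53, and 5.13 CPM (log2 1.67 ± 0.30, adjusted p = 0.00085). *Egr1* had 1 of 10 OCRs higher in BM and 0 in lung. TGF-beta and SMAD genes had 28 of 149 higher in lung and 9 in BM (16, 16, 19, and 15 in lung and 2, 5, 5, and 2 in BM), and within the list *Smad4* was more open in lung and *Smad1* in BM. In intron 1 of *Smad4* an OCR had 15.8, 11.3, 45.6, and 53.2 CPM (log2 −1.87 ± 0.25, adjusted p = 8.8e-05), and in intron 2 of *Smad1* an OCR had 3.18, 4.42, 0.745, and 0.386 CPM (log2 2.77 ± 0.51, adjusted p = 0.001). Beside shares of 11.5% higher in lung and 7.56% higher in BM over all OCRs, lipid metabolism genes had 13 of 98 (13.3%) higher in lung and 8 (8.16%) in BM (7, 6, 10, and 5 in lung and 5, 5, 6, and 4 in BM without each library). Circadian clock genes had 18 of 101 (17.8%) and 8 (7.92%), and 10, 9, 13, and 7 in lung and 3, 4, 3, and 2 in BM without each library. Chromatin regulators had 17 of 128 (13.3%) and 6 (4.69%), and 11, 12, 11, and 12 in lung and 1, 6, 3, and 1 in BM. ILC1 and ILC3 factors had 6 of 42 (14.3%) and 3 (7.14%), and 3, 4, 4, and 6 in lung and 1, 2, 4, and 1 in BM.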
